A study of Mus musculus with 13 samples.

Results

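The genes *Il4*, *Il5*, *Il13*, *Gata3*, *Il1rl1*, *Il4ra* and *Stat6* encode the cytokines, receptors and transcription factors of type 2 immunity. They were taken as the entries of the study's count tables whose gene name equals one of these 7 symbols, and all 7 were present among the 24417 named genes of both tables. RNA was sequenced from T cells sorted from the spleen and lymph nodes of C57BL/6 mice. All groups but the control Treg cells came from mice with the *Foxp3* LSL allele, in which a Thy1.1 reporter and a STOP cassette between loxP sites block *Foxp3*. Cells that switch on this locus without making the protein are called regulatory T (Treg) cell “wannabes”. The male mice were given 4-hydroxytamoxifen once, at 14 days of age, and were analyzed 7 days later, at 21 days. Control Treg cells (3 libraries) came from healthy *Foxp3* DTR-GFP/y*Cd4* creERT2 mice. Rescued Treg cells (3 libraries) came from *Foxp3* LSL/y*Cd4* creERT2 mice, in which the drug activates a Cre recombinase expressed from the *Cd4* allele that removes the STOP cassette. Male wannabes (2 libraries) came from *Foxp3* LSL/y*Cd4* wt mice, which were dosed too, lack the recombinase and stay diseased. Female mice 9 to 11 weeks old by their labels (the protocol says 8 to 10 weeks when treated) received diphtheria toxin 7, 5, 3 and 1 days before analysis. Resting wannabes (3 libraries) came from females with 1 wild-type allele, *Foxp3* LSL/WT*Cd4* wt, which keep their Treg cells. Activated wannabes (2 libraries) came from *Foxp3* LSL/DTR*Cd4* wt females, in which the toxin removes the Treg cells that express the DTR allele. The deposited values are reads per gene. Total counts were 30262093 to 34470710 (median 33754268) in control, 25556783 to 36659638 (median 35616611) in rescued, 31940308 and 34098364 in male wannabe, 28059854 to 29073949 (median 28539116) in resting and 31349153 and 31462226 in activated libraries. Levels are given as CPM, read counts scaled by library size after TMM normalization, which was carried out separately for the male and the female table. By the study's methods the female libraries came from separate mice and the male libraries are biological replicates.

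In type 2 immunity, the cytokines IL-4, IL-5 and IL-13 drive IgE production, eosinophil growth and changes in epithelia. IL-4 binds a receptor with the IL-4Rα chain and activates STAT6, which induces GATA3, and GATA3 in turn supports the expression of the cytokine genes in T helper 2 cells. GATA3 is also expressed in Treg cells, many of which in barrier tissues carry ST2, the receptor for the alarmin IL-33.

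The labels were checked on *Foxp3* and on *Thy1*, whose gene also counts the Thy1.1 reporter. The lowest rescued library held 865 CPM of *Foxp3*, above 252 in the highest control library, which was in turn above 99.8 in the higher male wannabe library. The 5 female wannabe libraries held 52.8 to 75.1 CPM of *Foxp3*. *Thy1* was between 176 and 327 CPM in the 7 wannabe libraries of both sexes and between 36.4 and 46.7 CPM in the 6 Treg libraries. All 5 T cell markers checked (*Cd3d*, *Cd3e*, *Cd3g*, *Cd4* and *Cd28*) were over 3 counts in every group.

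*Il4*, the ligand that starts the STAT6 pathway, was nearly absent from control Treg cells. The 3 control libraries held 0.0981, 0 and 0.316 CPM of *Il4* (3, 0 and 11 counts). The 3 rescued Treg libraries held 20.1, 9.36 and 9.12 CPM, and the male wannabes 79.5 and 93.8 CPM. The 3 groups of male cells did not overlap, with the rescued cells between the other two. The resting wannabes held 14.1, 23.7 and 10.3 CPM of *Il4* and the activated wannabes 39.9 and 44.4 CPM. Both activated libraries were above every resting library, and all 5 female libraries were above every control Treg library. By group mean, *Il4* ran from male wannabes (86.6 CPM) through activated wannabes (42.2), resting wannabes (16.0) and rescued Treg cells (12.9) to control Treg cells (0.138). Resting wannabes and rescued Treg cells overlapped in this order, and the 2 tables behind it were normalized separately.

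*Il13*, whose protein shares the IL-4Rα receptor chain with IL-4, was found almost only in the male wannabes. Those libraries held 131 and 67 counts of *Il13* (3.75 and 2.20 CPM). The 3 control libraries held 0 counts, and 1 of the 3 rescued libraries held 1 count. The activated wannabes had 7 and 13 counts (0.223 and 0.418 CPM) and the resting wannabes 2, 1 and 0. The male wannabes were thus alone above 1 CPM. By group mean, activated wannabes, resting wannabes, rescued and control Treg cells followed in that order, and neighbours from resting wannabes on overlapped, at or under 3 counts in every library. At 0 counts, the depth of a library allows up to 3 counts, or 8.18e-06 to 1.17e-05 percent of its total, and this limit covers counting error only.

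*Il5*, whose protein promotes eosinophils, was low everywhere and variable. The male wannabes held 25 and 88 counts of *Il5* (0.716 and 2.89 CPM). Rescued Treg cells held 16, 4 and 0 counts and control Treg cells 6, 2 and 0. The resting wannabes held 3, 22 and 0 counts and the activated wannabes 4 and 3. Every neighbouring pair of groups in the order of *Il5* means overlapped, with male wannabes first (1.80 CPM), then resting wannabes (0.287), rescued Treg cells (0.206), activated wannabes (0.112) and control Treg cells (0.0839), from 2 tables normalized separately.

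**Figure D1:**
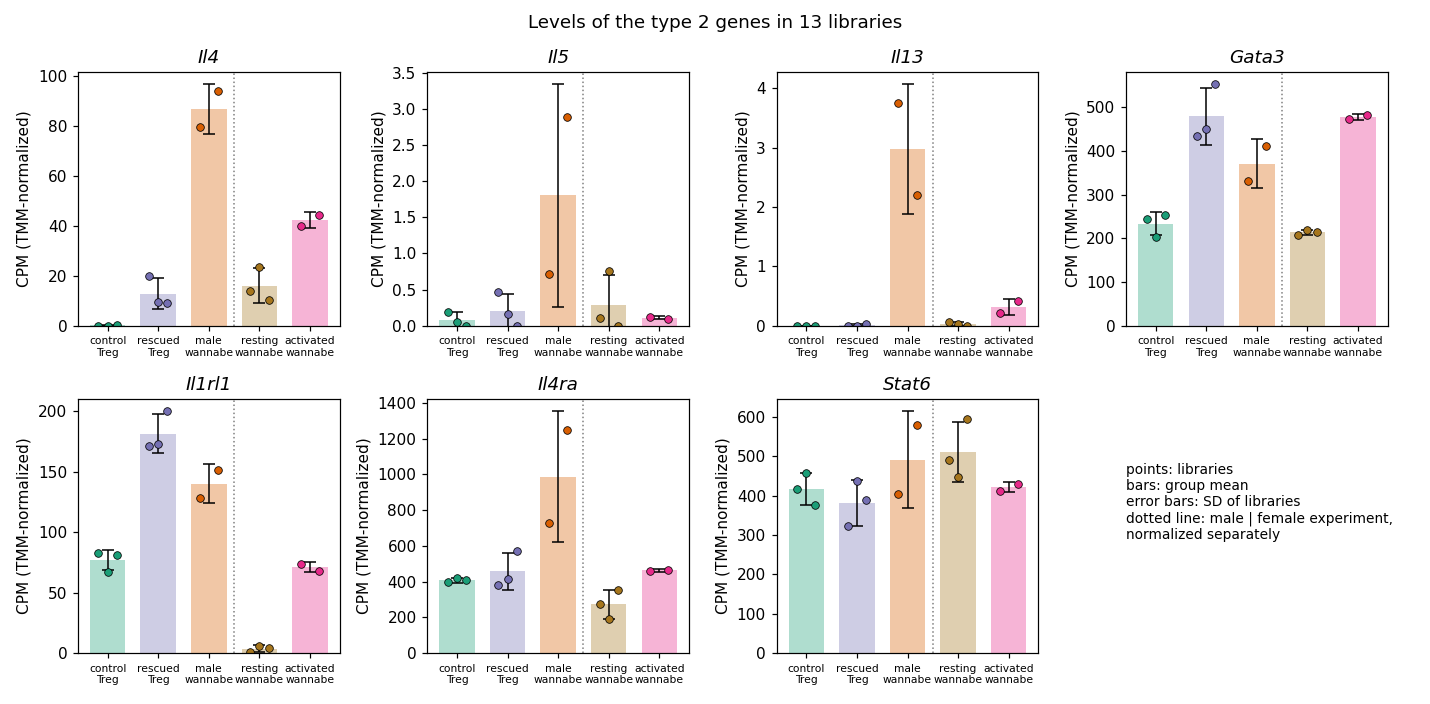
TMM-normalized CPM of the 7 genes in each of the 13 libraries (points), with the group mean (bars) and the SD of the libraries (error bars). The dotted line separates the male from the female experiment, which were normalized separately. *Il4* is at or under 0.316 CPM in the control libraries and between 9.12 and 93.8 CPM in all others, and *Il1rl1* is at or under 6.01 CPM in the resting wannabes and at or over 67.2 CPM in all other groups.

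*Il4ra*, the receptor chain for IL-4 and IL-13, was highest in the male wannabes, at 728 and 1246 CPM. Control Treg cells held 395, 420 and 407 CPM of *Il4ra* and rescued Treg cells 379, 416 and 574 CPM. These Treg groups overlapped, and both lay below the male wannabes. Resting wannabes held 274, 193 and 353 CPM and activated wannabes 458 and 466 CPM, without overlap. In the order of means, male wannabes (987 CPM) were followed by activated wannabes (462), rescued (456) and control Treg cells (407) and resting wannabes (273), and activated wannabes overlapped rescued Treg cells, which overlapped control Treg cells. The female values here come from a table normalized separately.

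*Il1rl1*, which encodes ST2, was carried by control Treg cells at 82.9, 67.2 and 80.7 CPM and by rescued Treg cells at 171, 173 and 200 CPM. The male wannabes held 128 and 151 CPM, between these groups and without overlap. The resting wannabes held 0.709, 6.01 and 4.09 CPM of *Il1rl1* (20, 175 and 117 counts) and the activated wannabes 73.7 and 67.8 CPM. Resting wannabes were thus the only group with little *Il1rl1*, and the activated wannabes overlapped the control Treg cells of the separately normalized male table. The mean levels ran from rescued Treg cells (181 CPM) through male wannabes (140 CPM), control Treg cells (76.9) and activated wannabes (70.7) to resting wannabes (3.60).

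*Gata3*, the lineage factor of T helper 2 cells, was present in all 13 libraries. Control Treg libraries held 245, 203 and 253 CPM and rescued Treg libraries 434, 449 and 553 CPM of *Gata3*. Male wannabes held 331 and 411 CPM, between both Treg groups. Resting wannabes were lowest by mean, at 208, 220 and 214 CPM, and activated wannabes held 473 and 483 CPM. In the order of means, rescued Treg cells (479 CPM) and activated wannabes (478) overlapped at the top, male wannabes followed (371), and control Treg cells (234) and resting wannabes (214) overlapped at the bottom, with both tables normalized separately.

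*Stat6*, the factor that carries the IL-4 signal to the nucleus, varied least of the 7 genes. Its level lay between 322 and 594 CPM over the 13 libraries. The means were 511 CPM in resting wannabes, 492 in male wannabes, 422 in activated wannabes, 417 in control and 383 in rescued Treg cells. All neighbours in this order overlapped, and the female table was normalized separately.

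Between genes, levels were compared per length, as CPM per kb of exon. In control Treg cells *Stat6* (94.7 CPM per kb), *Il4ra* (67.8) and *Gata3* (58.8) led, *Il1rl1* was at 11.2 and *Il4* at 0.113 CPM per kb. In rescued Treg cells *Gata3* led at 120.4 CPM per kb, with *Il1rl1* at 26.3 and *Il4* at 10.5. In male wannabes *Il4* reached 70.6 CPM per kb, beside 93.3 for *Gata3*, 20.3 for *Il1rl1* and 2.47 for *Il13*. In resting wannabes *Il4* was at 13.1 and *Il1rl1* at 0.523 CPM per kb. In activated wannabes *Gata3* was at 120.2, *Il4* at 34.4 and *Il1rl1* at 10.3 CPM per kb. Per length, *Il4* thus stood above *Il1rl1* in the 3 wannabe groups and below it in both Treg groups.

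Rescued against control Treg cells asks how Treg cells restored in an inflamed mouse differ from those of a healthy mouse of the same age. The rescued cells carried more of a cytokine gene that control Treg cells hardly express, together with more *Gata3* and more *Il1rl1*. The genes for the IL-4 receptor chain and for STAT6 were not called. In bulk RNA, a different share of cells that express a gene and a different amount of RNA per cell cannot be told apart. *Il4* was higher in 3 of 3 rescued libraries than in any control library, with a log2 fold change of 6.50 (SE 0.671, edgeR adjusted p 0.00119). *Gata3* rose by a log2 fold change of 1.03 (SE 0.158, edgeR adjusted p 0.00938) and *Il1rl1* by 1.24 (SE 0.158, edgeR adjusted p 0.00389). *Il5* (1.28), *Il4ra* (0.17) and *Stat6* (-0.12) had log2 fold changes with edgeR adjusted p of 0.793 to 0.82, and for *Il13* both groups lay at the floor, so no fold is given. Thus 3 of 7 genes were called, all higher, beside 2.30% of the 14925 genes tested that were called in either direction, 1.43% called higher and 0.864% called lower. The same 3 genes had no overlap between the groups, as had 24.2% of all genes tested. *Il5* and *Il13* passed the filter on low counts only through the male wannabes. *Il4* did not pass it through the control cells, so the filter had a part in both counts. *Gata3* and *Il1rl1*, the other genes called and without overlap, passed it in every group. The size of the *Il4* change rested on 2 control libraries, as it was 8.03 without control replicate 3, which held 11 of the 14 control counts, and 5.90 without control replicate 2.

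Control Treg cells against male wannabes sets cells of a healthy mouse against cells that never had functional Foxp3 in a sick one. Every type 2 gene that was called was lower in the control Treg cells, and these were the cytokine genes *Il4* and *Il13*, both receptor genes and *Gata3*. *Il4* had a log2 fold change of -9.25 (SE 0.729, edgeR adjusted p 0.000135). *Il13* was at least 33.3-fold lower in control Treg cells, counted against a floor of 3 counts per library (edgeR adjusted p 0.0108). *Il4ra* had a log2 fold change of -1.28 (SE 0.227, edgeR adjusted p 0.00404), *Il1rl1* of -0.86 (SE 0.172, edgeR adjusted p 0.00694) and *Gata3* of -0.67 (SE 0.173, edgeR adjusted p 0.0239). *Il5* (-4.38) and *Stat6* (-0.24) were not called, with edgeR adjusted p of 0.15 and 0.429. The log2 fold change of *Il5* was -5.83 without control replicate 1, -5.06 without male wannabe replicate 1 and -3.09 without male wannabe replicate 2. So 5 of 7 genes were called and all 5 were lower, beside 16.2% of genes called in either direction, 9.92% higher and 6.27% lower. Except for *Stat6*, all genes were without overlap between these groups (6 of 7), as were 46.1% of the genes tested. *Il5* and *Il13* passed the filter only through the male wannabes, so the filter had a part in both counts, and of the other 5 genes 4 were called and 4 had no overlap. *Il4*, counted among these 5, did not pass the filter through the control Treg cells. The call of *Gata3* ended without control replicate 1, control replicate 2, male wannabe replicate 2 or rescued replicate 2 (edgeR adjusted p 0.0557, 0.0876, 0.0846 and 0.0524), and that of *Il13* without male wannabe replicate 1 (0.0537), while the log2 fold change of *Il4* was -10.78 without control replicate 3 and -8.65 without control replicate 2.

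Rescued Treg cells against male wannabes compares cells whose STOP cassette is gone with cells that keep it. The *Cd4* allele and the sort gate differ between these groups too. Here *Il4*, *Il13* and the receptor chain gene *Il4ra* were called lower in the rescued cells, while *Gata3* and *Il1rl1*, whose rescued libraries were all above the wannabe libraries, were not called. *Il4* was lower in 3 of 3 rescued libraries, with a log2 fold change of -2.75 (SE 0.523, edgeR adjusted p 0.00525). *Il4ra* was lower by a log2 fold change of -1.11 (SE 0.227, edgeR adjusted p 0.00759). *Il13*, with 1 count in the rescued libraries together and 198 in the wannabes, was 290.1-fold higher in the wannabes, with a 95% counting interval of 51.5 to 11515 that covers counting error only (edgeR adjusted p 0.0184). The log2 fold changes of *Gata3* (0.37, SE 0.176) and *Il1rl1* (0.38, SE 0.175) had edgeR adjusted p of 0.2 and 0.19. *Il5* (-3.10) and *Stat6* (-0.36) were not called either, with edgeR adjusted p of 0.302 and 0.246. The log2 fold change of *Il5* was -4.50 without rescued replicate 1, -3.78 without male wannabe replicate 1 and -1.82 without male wannabe replicate 2. In all, 3 of 7 genes were called, each lower, beside 14.1% of all genes in either direction, 10.0% higher and 4.06% lower. Again 6 of 7 genes, all but *Stat6*, had no overlap, as had 42.7% of all genes. *Il5* and *Il13* passed the filter only through the male wannabes, so the filter had a part in both counts, and of the other 5 genes 2 were called and 4 had no overlap. The *Il13* call ended without male wannabe replicate 1, rescued replicate 1 or rescued replicate 2 (edgeR adjusted p 0.0952, 0.0543 and 0.0616), and its fitted log2 fold change was -9.59 without rescued replicate 3, against -7.75 with it. These 3 comparisons share libraries and are not independent.

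Activated against resting wannabes asks what cells without functional Foxp3 express when Treg cells are removed around them. The activated cells carried more *Il4* and more *Gata3*, and *Il1rl1* went from a few CPM to a level that overlapped that of control Treg cells in the separately normalized male table. *Il1rl1* rose by a log2 fold change of 4.29 (SE 0.629, edgeR adjusted p 0.00571). *Gata3* rose by a log2 fold change of 1.16 (SE 0.068, edgeR adjusted p 0.000334) and *Il4* by 1.40 (SE 0.321, edgeR adjusted p 0.026). *Il4ra* (0.76, SE 0.225) and *Stat6* (-0.28, SE 0.125) were not called, with edgeR adjusted p of 0.0554 and 0.155. *Il5* and *Il13* did not pass the filter on low counts in this table, so 5 of 7 genes were tested. The summed counts of *Il13*, 20 in the activated and 3 in the resting wannabes, gave a ratio of 9.16 with a 95% counting interval of 2.72 to 48.2. Of the 5 genes tested, 3 were called and all 3 were higher, beside 22.5% of 13166 genes called in either direction, 11.3% higher and 11.2% lower. All 5 were without overlap between the groups, as were 56.5% of all genes tested. The call of *Il4* ended without activated replicate 1, activated replicate 2 or resting replicate 1 (edgeR adjusted p 0.118, 0.149 and 0.0563). *Il4ra* was called without resting replicate 2 (0.0345) or resting replicate 3 (0.0138) in edgeR, and by DESeq2 (adjusted p 0.00612).

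**Figure D2:**
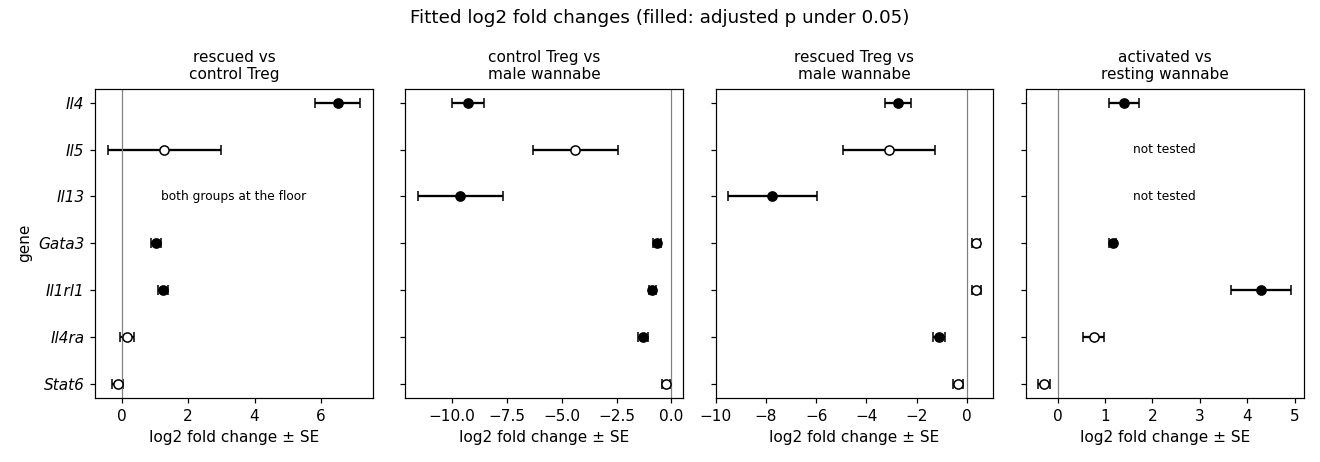
Log2 fold changes (first group over second, log2 scale) with their standard errors for the 7 genes in the 4 comparisons, from edgeR. Filled points have an adjusted p under 0.05, *Il5* and *Il13* were not tested in the female table, and fitted values of *Il13* depend on the prior count because a group is at or near 0 counts. *Il4* is at 6.50 and *Il1rl1* at 1.24 in the first panel, and at 1.40 and 4.29 in the last.

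The changes from control to rescued Treg cells and from resting to activated wannabes both included higher *Il4*, *Gata3* and *Il1rl1*, in different proportions. The difference of the changes, tested over all 13 libraries, was called for *Il4* at 5.12 (SE 0.834, edgeR adjusted p 0.0101) and for *Il1rl1* at -3.03 (SE 0.612, edgeR adjusted p 0.0268) on the log2 scale. On this scale the *Il4* change was larger in the male and the *Il1rl1* change larger in the female experiment. In CPM, with the tables normalized separately, the order is the opposite: mean *Il4* went from 0.138 to 12.9 in the male and from 16.0 to 42.2 in the female experiment, and mean *Il1rl1* from 76.9 to 181 and from 3.60 to 70.7. For *Gata3* the difference was -0.11 (SE 0.201, edgeR adjusted p 0.895). *Il4ra* (-0.58), *Stat6* (0.17) and *Il5* (2.63) had differences with edgeR adjusted p of 0.521 to 0.856, and for *Il13*, at the floor in both Treg groups, no difference is given. The 2 calls among 7 genes, 1 in each direction, stand beside 1.53% of 15201 genes called, 0.803% higher and 0.730% lower. Sex, age, allele, treatment and cell type (Treg cells in the male, wannabes in the female change) differ between the experiments and cannot be told apart. Leaving out activated replicate 1 or 2 ended both calls (edgeR adjusted p of *Il4* 0.074 and 0.0677, of *Il1rl1* 0.102 and 0.0952). Leaving out control replicate 1 or 3 or rescued replicate 2 or 3 ended that of *Il1rl1* (edgeR adjusted p 0.0562, 0.059, 0.0581 and 0.0504). The difference of *Il5* was 4.06 without control replicate 1, 1.21 without rescued replicate 1 and 0.27 without resting replicate 2. The difference of *Il4* was 6.65 without control replicate 3, and that of *Il1rl1* was -3.63 without resting replicate 2.

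Within each library the cytokine genes were set against *Gata3* and *Il1rl1*, to see whether they kept a common proportion. Per length, the *Il4* level was 0.13%, 0% and 0.405% of the *Gata3* level in control Treg cells and 15.0%, 6.75% and 5.35% in rescued Treg cells. In male wannabes it was 77.8% and 74.1% of the *Gata3* level. The resting wannabes had 22.0%, 35.0% and 15.5% and the activated wannabes 27.4% and 29.8%. *Il4* per *Gata3* therefore separated the 3 male groups, while the resting and activated wannabes overlapped. Per length, the *Il4* level was 25.6% to 65.9% of the *Il1rl1* level in rescued Treg cells and at most 2.20% in control Treg cells. It was 348% and 349% in male wannabes, 305% and 368% in activated wannabes and 1407% to 11153% in resting wannabes. The *Il13* level per length was 3.74% and 1.77% of the *Gata3* level in male wannabes and at most 0.286% in each other library.

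On the log2 scale, with a prior count of 2, the *Il4* to *Gata3* ratio was higher by 5.26 in rescued than in control Treg cells (two-sided exact permutation test, p 0.1, n = 3 each). It differed by -8.47 between control Treg cells and male wannabes and by -3.21 between rescued Treg cells and male wannabes (exact permutation test, p 0.2 each). Between activated and resting wannabes the difference of this ratio was 0.32 (exact permutation test, p 0.6). The *Il4* to *Il1rl1* ratio differed by 5.05, -8.27, -3.22 and -3.23 in the same order of comparisons. Without control replicate 3, the first was 5.66 and the second -8.88, and the last was -2.39 without resting replicate 1 and -3.82 without resting replicate 3. The sign of the last one is opposite to that of *Il4* itself in the fit, as *Il1rl1* differed more between these groups than *Il4*. For 3 cytokine genes, 2 reference genes and 4 comparisons, 24 such tests were made, and the libraries did not overlap in 19. These include both *Il13* ratios between rescued and control Treg cells, where *Il13* has 1 count in all and the differences (-0.85 and -1.06) carry mostly the change of the reference gene. The smallest p that 3 against 3 libraries allow is 0.1 and that 3 against 2 allow is 0.2, so no test could reach 0.05, and the permutation p adjusted over the 24 tests ranged from 0.253 to 0.7.

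**Figure D3:**
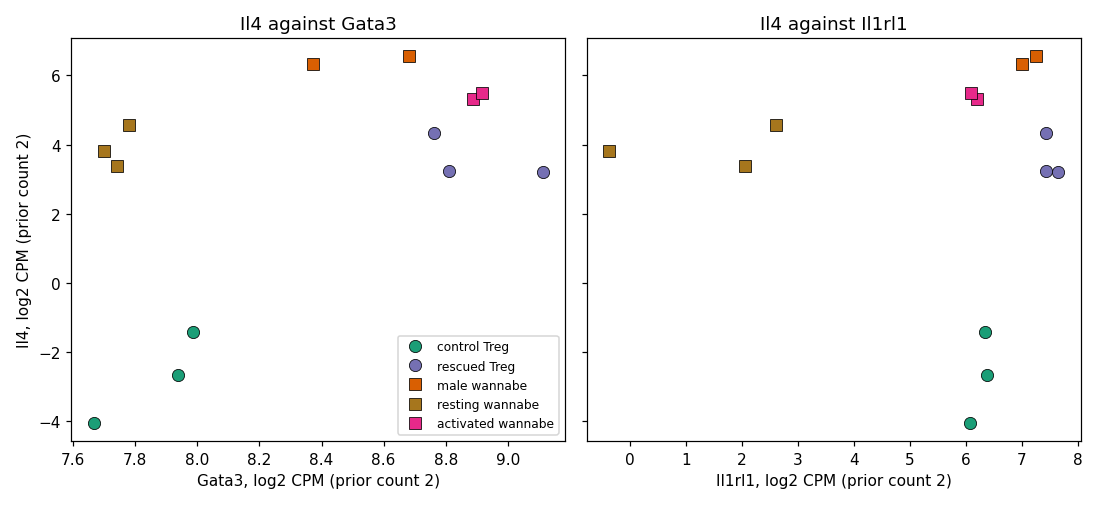
Log2 CPM (prior count 2) of *Il4* on the vertical axis against *Gata3* (left) and *Il1rl1* (right) in 13 libraries, with Treg cells as circles and wannabes as squares and the male and female tables normalized separately. Control Treg libraries lie at or under a log2 CPM of -1.41 for *Il4*, and resting wannabes lie at or under 2.60 for *Il1rl1*.

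The genes with the most similar profiles over the 8 male libraries were sought among 10785 genes with a mean normalized count over 100, as a description across libraries of 3 groups. For *Gata3* the closest was *Il1rl1* (Pearson r 0.991), followed by *Arnt2* (0.977), *9330133O14Rik* (0.974), *Il10ra* (0.964) and *Icos* (0.958). For *Il1rl1* the closest was *Gata3*, followed by *Arnt2* (0.975), *Egln3* (0.971), *Serinc3* (0.97) and *Tigit* (0.968). Over the 5 female libraries *Gata3* and *Il1rl1* had an r of 0.933, while *Arnt2* had -0.439 with *Gata3* and -0.364 with *Il1rl1*. With *Gata3*, the female r was -0.0333 for *9330133O14Rik*, 0.499 for *Il10ra* and 0.772 for *Icos*. With *Il1rl1*, it was -0.0437 for *Egln3*, 0.854 for *Serinc3* and 0.672 for *Tigit*. The profile of *Il4* was closest to *Litaf* (male 0.983, female 0.834), *Gprin3* (0.981 and 0.938), *Got2* (0.981 and 0.957), *Ica1l* (0.98 and 0.894) and *Lpxn* (0.98 and 0.252). *Il4* had an r of 0.78 with *Gata3* and 0.826 with *Il1rl1* over the male libraries, and of 0.894 and 0.866 over the female libraries.

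*Il4*, *Il13* and *Il5* lie in one cluster on chromosome 11 of GRCm38. In the GENCODE annotation *Il4* spans chr11:53602982-53618669 and *Il13* chr11:53631324-53634702, both on the minus strand, 12654 bases apart. *Il5* spans chr11:53720794-53725106 on the plus strand, 86091 bases beyond *Il13*, with *Rad50* between them. *Gata3* spans chr2:9857078-9890034 (minus strand), *Il1rl1* chr1:40429570-40465415 (plus), *Il4ra* chr7:125552120-125579474 (plus) and *Stat6* chr10:127642986-127660957 (plus). Of the 3 clustered genes, *Il4* alone was called between rescued and control Treg cells.

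**Figure D4:**
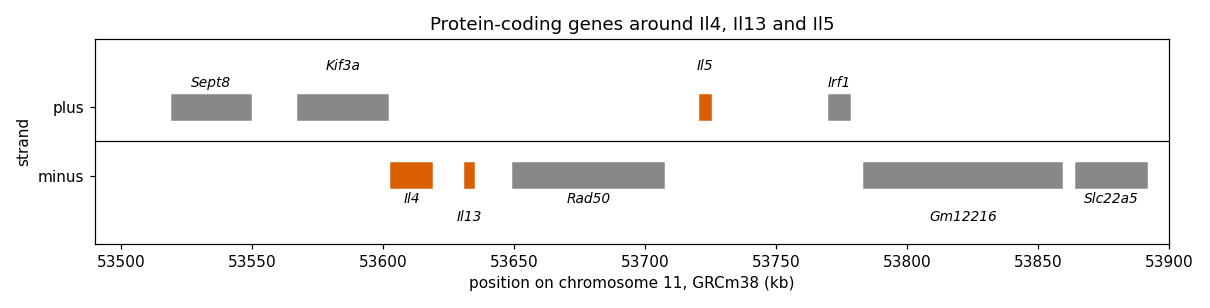
Protein-coding genes of the GENCODE annotation around the cytokine cluster, drawn to scale by strand on chromosome 11 of GRCm38 (position in kb). *Il4* and *Il13*, 12654 bases apart, and *Il5* are in orange, and *Rad50* lies between *Il13* and *Il5*.

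The 250 bases before the start are shown for the clustered cytokine genes, which lie together and differed in their calls, and for *Il1rl1*, which had the largest log2 fold change between activated and resting wannabes among the 5 of the 7 genes tested there. All 7 genes had at least 1 start in the RefSeq promoter table, with 9 windows in all. The windows are chr11:53618666-53618915 (*Il4*, minus strand), chr11:53634703-53634952 (*Il13*, minus), chr11:53720544-53720793 (*Il5*, plus) and chr1:40429320-40429569 (*Il1rl1*, plus) of GRCm38.p6. They are written 5′ to 3′ along the gene, with capitals for GATA on either strand (GATA or TATC) and for TTC and GAA with any 4 bases between them, a palindrome bound by STAT6.
Il4: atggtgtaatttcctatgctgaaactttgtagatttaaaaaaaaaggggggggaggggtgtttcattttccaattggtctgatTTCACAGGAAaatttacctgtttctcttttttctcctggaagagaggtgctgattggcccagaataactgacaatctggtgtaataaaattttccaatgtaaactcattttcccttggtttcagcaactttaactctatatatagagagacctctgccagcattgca
Il13: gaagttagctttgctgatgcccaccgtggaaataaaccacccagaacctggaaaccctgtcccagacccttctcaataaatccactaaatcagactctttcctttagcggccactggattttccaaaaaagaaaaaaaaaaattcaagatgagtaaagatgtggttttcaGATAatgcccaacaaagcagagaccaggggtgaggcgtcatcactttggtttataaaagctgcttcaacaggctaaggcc
Il5: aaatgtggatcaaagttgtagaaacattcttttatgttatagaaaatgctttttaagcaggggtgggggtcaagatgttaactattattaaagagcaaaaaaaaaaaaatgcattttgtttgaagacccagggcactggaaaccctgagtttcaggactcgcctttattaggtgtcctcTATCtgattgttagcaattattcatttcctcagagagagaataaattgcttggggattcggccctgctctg
Il1rl1: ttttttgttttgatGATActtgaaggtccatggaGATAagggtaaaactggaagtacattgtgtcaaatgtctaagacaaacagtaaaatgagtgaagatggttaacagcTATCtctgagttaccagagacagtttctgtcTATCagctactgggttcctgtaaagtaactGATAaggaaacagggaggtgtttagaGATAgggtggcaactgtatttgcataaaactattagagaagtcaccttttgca
The *Il1rl1* window holds 6 GATA matches, that of *Il13* 1 at 80 bases and that of *Il5* 1 at 71 bases before the start. The *Il4* window holds no GATA and 1 palindrome, 167 bases before the start. A second *Il4* start and a second *Il1rl1* start in the table have 3 and 2 GATA matches, and the *Gata3* window has neither motif. GATA on both strands occurs in 53.6% and the palindrome in 5.85% of the 32851 promoter windows of this length. A match is a description of the letters, not a binding site.

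The other genes of these pathways were counted in 8 lists, beside all-gene medians of the log2 fold change of -0.03 (rescued against control), 0.09 (control against male wannabe), 0.00 (rescued against male wannabe), -0.01 (activated against resting) and -0.03 (difference of changes). Of all genes tested, 2.30%, 16.2%, 14.1%, 22.5% and 1.53% were called in these comparisons. Among 12 genes around the cytokine cluster, the only call between rescued and control Treg cells was *Il4*. From control Treg cells to male wannabes, *Il4*, *Il13* and *Kif3a* (log2 fold change -1.63, edgeR adjusted p 0.0331) were lower in control cells, and *Il4* and *Il13* were the 2 called genes of this list between rescued cells and wannabes. In the female experiment 10 were tested and 2 called, *Il4* and *Il3*, which was at 0 in resting wannabes and at least 15.5-fold higher in activated ones against the floor of 3 counts per library (edgeR adjusted p 0.0165). *Il3* passed the filter only through the activated wannabes, so the filter had a part in its call. *Il4* was the 1 gene of the list called in the difference. The medians of the list were 1.20 (0.41 with genes at the floor set to their bounds), -1.83, -1.15, 0.22 and -0.03, in the order of comparisons above.

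Of 11 genes for IL-4 and IL-13 receptor chains and signalling, 10 were tested, and between rescued and control Treg cells edgeR and DESeq2 each called 0, with 1 gene, *Ptpn6*, at an unadjusted p under 0.05 in edgeR. The inhibitor *Socs1* (log2 fold change 2.36, edgeR adjusted p 0.0168) and the kinase *Jak1* (1.24, 0.00105) were higher in control Treg cells than in male wannabes, where *Il4ra* was lower. *Socs1* (2.96), *Jak1* (1.38) and *Jak3* (0.90) were also higher in rescued cells than in male wannabes, with *Il4ra* again lower. *Socs1* (0.86), *Jak3* (0.39) and *Il2rg* (0.28) rose in activated wannabes. The medians were 0.14, -0.06, 0.04 (0.02 with floor bounds), 0.15 and -0.23, and in the difference edgeR and DESeq2 each called 0, with 0 at an unadjusted p under 0.05 in edgeR.

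Of 8 genes for the ST2 ligand, its co-receptor and adaptors, edgeR called 0 between rescued and control Treg cells, where *Irak1* alone was at an unadjusted p under 0.05 and was called by DESeq2. In the difference both tools called 0, with 0 at an unadjusted p under 0.05 in edgeR. *Irak1* was higher (log2 fold change 1.04, edgeR adjusted p 0.0273) and *Myd88* lower (-0.79, 0.00877) in control Treg cells than in male wannabes. The same 2 genes were called between rescued Treg cells and male wannabes (*Irak1* 1.91, *Myd88* -0.56), and *Traf6* fell in activated wannabes (-0.45, edgeR adjusted p 0.0085, 7 genes tested). The medians were 0.15, 0.15 (0.07 with floor bounds), 0.06, 0.09 and 0.11. In the cluster of 9 IL-1 receptor family genes and neighbours around *Il1rl1* on chromosome 1, 7 were tested in the male table, and *Il1rl1* alone was called between rescued and control cells. Lower in control Treg cells than in male wannabes were *Il1r1* (-3.46), *Il1rl2* (-3.14), *Il1r2* (-1.46) and *Il1rl1*, and lower in rescued cells than in male wannabes were *Il1rl2* (-3.64) and *Il1r1* (-3.17). In activated wannabes *Il1rl1* and *Il18rap* (1.20) rose while *Il1r1* (-2.14) and *Il18r1* (-1.05) fell, so neighbours of *Il1rl1* differed in direction. The medians were 0.29, -0.86, -0.51, 0.26 and -0.51, *Il1rl1* was the 1 call in the difference, and *Slc9a4* was at or under 3 counts in every library.

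Of 13 GATA family genes and partners of GATA3, 9 were tested, and *Gata2*, *Gata5* and *Gata6* were at or under 3 counts in every library. With *Gata3*, *Satb1* rose (log2 fold change 1.12, edgeR adjusted p 0.0163) in rescued against control Treg cells, and *Tcf7* (-0.98, 0.00938) and *Lef1* (-0.64, 0.0264) fell. In control Treg cells *Rbpj* (-1.65), *Tcf7* (-1.07) and *Gata3* were lower than in male wannabes. In rescued Treg cells *Satb1* (1.09) was higher and *Tcf7* (-2.05), *Gata1* (-1.22) and *Rbpj* (-0.92) were lower than in male wannabes. *Satb1* (1.44), *Gata3* and *Gata1* (1.08) rose in activated wannabes. The medians were -0.46, -0.18, -0.18, 0.04 and -0.41, and 2 genes, *Gata1* and *Tcf7*, were called lower in the difference.

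Of 19 T helper 2 effector and surface genes, 16 were tested and *Il24* was at or under 3 counts in every library. In rescued against control Treg cells *Nfil3* alone was called (log2 fold change 3.05, edgeR adjusted p 0.011). The chemokine receptor gene *Ccr3* was higher in control (2.74) and in rescued Treg cells (3.46) than in male wannabes, and *Ptgdr2* was lower in rescued Treg cells (-4.89, SE 1.37). Mean *Ptgdr2* was 0.0694 CPM in rescued Treg cells and 2.20 in male wannabes. It did not pass the filter through the rescued cells, so the filter had a part in this call. In activated wannabes 6 genes were higher, led by *Il3*, *Pparg* (4.46) and *Il17rb* (2.39), and 3 were lower, *Bhlhe41*, *Maf* (-1.11) and *Junb* (-0.75). *Bhlhe41*, with 1 count in activated wannabes, was 34.2-fold higher in resting ones (95% counting interval 5.84 to 1379). *Il3*, *Ccr3* and *Pparg* (mean 0.162 CPM in resting and 3.67 in activated wannabes) passed the filter only through activated wannabes. *Bhlhe41* passed it only through resting wannabes, so the filter had a part in these calls. *Ccr3* (log2 fold change 2.20, edgeR adjusted p 0.0479) held 4 to 11 counts in resting and 23 and 48 in activated libraries. The medians were 0.43 (0.41 with floor bounds), -0.16, 0.28, 0.59 and -0.34, and the difference was called for *Nfil3* and *Maf* (higher) and *Pparg* (lower).

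Of 12 genes of ST2-positive tissue Treg cells, 6 were called between rescued and control Treg cells, all higher in rescued cells and led by *Nfil3*, *Il10* (log2 fold change 2.60, edgeR adjusted p 0.0004) and *Itgae* (1.96, 0.00199). Against male wannabes, *Klrg1* (1.55) and *Rora* (1.14) were higher in control Treg cells and 5 genes were lower, led by *Il10* (-2.17), *Tigit* (-1.38) and *Itgae* (-0.95). *Klrg1* (2.82), *Rora* (1.39) and *Itgae* (1.00) were higher in rescued Treg cells than in male wannabes and *Irf4* (-0.99) was lower. In activated wannabes 5 genes rose, led by *Pparg*, *Klrg1* (3.53) and *Itgae* (2.42), and *Irf4* (-1.02) and *Il10* (-0.94) fell. *Klrg1*, with 0 to 15 counts in resting and 81 and 123 in activated libraries, passed the filter only through activated wannabes. *Pparg*, at a mean of 0.162 CPM in resting and 3.67 in activated wannabes, also passed it only through activated wannabes. The filter thus had a part in both calls. The medians were 1.34, -0.69, 0.58, 0.66 and 0.66, and the difference was called for *Il10* (3.56), *Nfil3* (3.55), *Prdm1* (2.27) and *Pparg* (-4.56).

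Of 16 cytokines and factors of other helper lineages, 14 were tested in the male table. *Il21* (log2 fold change 5.03, edgeR adjusted p 0.0198), *Tbx21* (2.27, 0.0192) and *Cxcr3* (1.71, 0.0359) rose in rescued against control Treg cells and *Ccr6* fell (-2.57, 0.00289). *Il4* was thus not the only helper cytokine gene called higher. Mean *Il21* was 0.0638 CPM in control Treg cells, 2.11 in rescued Treg cells and 13.4 in male wannabes. It did not pass the filter through the control cells, so the filter had a part in its calls against them. *Ccr6* (2.02) and *Cxcr5* (0.86) were higher and *Il21* (-7.69) was lower in control Treg cells than in male wannabes. *Tbx21* (2.88) was higher and *Il21* (-2.66) and *Bcl6* (-1.57) were lower in rescued Treg cells than in male wannabes. In activated wannabes 3 of 16 genes rose, *Cxcr3* (3.41), *Tbx21* (3.10) and *Il12rb2* (3.07), and 7 fell, led by *Il17a* (-5.96), *Il17f* (-5.03) and *Il23r* (-4.70). The medians were -0.34, -0.68, 0.02, -0.23 and 0.03, and *Il21* (7.82) was the 1 gene called in the difference.

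Markers of other cells that transcribe type 2 cytokine genes were summed too, although by the study's methods the repeated sort kept TCRβ- and CD4-positive cells and removed those with CD8 or NK1.1. Of 9 basophil and mast cell markers, *Gata2* and *Prss34* were at 0 counts in all 13 libraries, *Fcer1a* reached at most 1 count and *Mcpt8* at most 8. The summed CPM of the 9 was 7.26 to 19.5 in control Treg cells, 9.93 to 11.5 in rescued Treg cells, 34.4 and 37.8 in male wannabes, 31.7 to 60.6 in resting and 34.2 and 44.8 in activated wannabes, with *Kit* the most abundant and 4 or 5 markers over 3 counts in each group. In the rescued Treg libraries this sum lay within the range of the control libraries. *Hdc* of this list was higher in activated than in resting wannabes (mean 16.2 against 3.52 CPM), as *Il4* was, and its part was not tested. Its log2 fold change was 2.20 (edgeR adjusted p 0.00322), while that of *Kit* was -0.96 (0.0918). Of 6 eosinophil markers, *Ear1* and *Ear2* were at 0 and 1 or 2 were over 3 counts in every group, and *Ccr3* had the highest group mean in each. Their sum was 7.20 to 18.3 CPM in control and 14.7 to 28.9 in rescued Treg cells, 2.72 and 2.73 in male wannabes, 0.142 to 0.910 in resting and 1.06 and 1.53 in activated wannabes, so both activated libraries were above every resting library, as for *Il4*, *Gata3* and *Il1rl1*. All 7 markers of group 2 innate lymphoid cells were over 3 counts in every group, and T cells express several of them. Their sum was 381 to 485 CPM in control Treg cells, 925 to 983 in rescued Treg cells, 819 and 930.1 in male wannabes, 785 to 1180 in resting and 777 and 839.7 in activated wannabes, led by *Il7r* in Treg cells and *Id2* in wannabes. This sum was higher in each rescued library than in any control library, as were *Il4*, *Gata3* and *Il1rl1*, while activated and resting wannabes overlapped in it. Its part in these results was not tested.

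The markers of further cell types were counted in the same way. Of 8 macrophage and dendritic cell markers, 6 to 8 were over 3 counts and *Cd74* led in every group. Their sum was 58.3 to 83.9 CPM in control Treg cells, 183 to 198 in rescued Treg cells, 198 and 227 in male wannabes, 31.9 to 34.8 in resting and 121 and 124 in activated wannabes. *Csf1r* and *Itgax* were at 0 in the male wannabes and reached at most 44 and 26 counts in the other groups. Mean *H2-Aa* was 0.111 CPM in control Treg cells, 4.08 in rescued Treg cells, 10.5 in male, 0.931 in resting and 2.40 in activated wannabes. *Cd74* (log2 fold change 1.53, edgeR adjusted p 0.00152) and *H2-Aa* (5.11, 0.0418) were called higher in rescued than in control Treg cells. *H2-Aa* did not pass the filter through the control cells. *Itgam* went the other way (-1.30, 0.475) and was not called. The sum of this list was higher in each rescued library than in any control library and in each activated library than in any resting library, as were *Il4*, *Gata3* and *Il1rl1*, and its part in these results was not tested. Of 7 B cell markers, led by *Cd79b* in the other groups and *Cd22* in activated wannabes, the sum was 36.4 to 49.9 CPM in control and 45.5 to 49.6 in rescued Treg cells, 42.1 and 61.2 in male wannabes, 10.7 to 12.7 in resting and 70.3 and 72.4 in activated wannabes, with *Ms4a1* at 0 in control Treg cells. The 4 NK and NKT cell markers summed to 0.687 to 1.52 CPM in control and 3.13 to 7.50 in rescued Treg cells, 5.30 and 7.45 in male wannabes, 5.39 to 9.58 in resting and 7.29 and 10.0 in activated wannabes, so each rescued library was above every control library, as for *Il4*, *Gata3* and *Il1rl1*. They were led by *Klrb1c* in the male and *Klrd1* in the female groups. *Ncr1* was at 0 in control Treg cells, male wannabes and resting wannabes, at 0 to 55 counts in rescued Treg cells and at 2 and 3 in activated wannabes. The B cell and CD8 T cell sums, too, were higher in both activated libraries than in any resting library, as were *Il4*, *Gata3* and *Il1rl1*. The sum of 2 CD8 T cell markers was 12.2 to 27.8 CPM in the male groups, 9.71 to 13.9 in resting and 14.2 and 15.9 in activated wannabes, nearly all *Cd8b1*, with *Cd8a* at most at 17 counts. Neutrophil markers (6) summed to at most 2.03 CPM, led by *Mpo* or *S100a8*, and the 3 erythroid markers found in the tables to at most 17.3 CPM, led by *Hba-a1* or *Hbb-bs*. The 5 T cell markers, led by *Cd3e* or *Cd4*, summed to 2737 to 2924 CPM in control and 2612 to 2855 in rescued Treg cells, 3239 and 4055 in male wannabes, 3606 to 3970 in resting and 3068 and 3126 in activated wannabes, so both activated libraries were below every resting library. The 6 Treg markers summed to 3249 to 4640 CPM in Treg cells and, in wannabes, to 1774 and 2045 (male), 1611 to 1762 (resting) and 2032 and 2381 (activated), led by *Ikzf2* in control Treg cells, *Foxp3* in rescued Treg cells, *Tnfrsf18* in male and *Ctla4* in female wannabes. In both male wannabe libraries the sums of the basophil, innate lymphoid, macrophage and NK lists were above those of every control library. *Il4*, *Gata3*, *Il1rl1* and the T cell sum were above too. In the T cell list, *Cd4* was lower (log2 fold change -1.51, edgeR adjusted p 0.000456) and *Cd28* higher (0.64, 0.0178) in control Treg cells. The CD3 genes of the list were not called. The sums of the basophil and T cell lists were lower in each rescued library than in either male wannabe library. *Il4*, *Il13* and *Il4ra* were lower too, while the sum of the eosinophil list was higher. Of the T cell markers, only *Cd4* was called between these groups (log2 fold change -1.27, edgeR adjusted p 0.000589), while *Cd28* went the other way (0.47, 0.0692). Both Treg groups carry *Cd4* creERT2 and the male wannabes *Cd4* wt, and the part of this allele was not tested. Whether cells of the other types passed the sort was not tested.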

How the data were processed

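Bulk RNA-seq libraries (13, in 5 groups) came from 2 tables. The authors aligned reads with STAR 2.7.3a to GRCm38, realigned them locally and counted reads over genes in R. The deposited values are these counts, without normalization. The gene annotation and the strand setting of the counting are not stated. Libraries were assigned by titles, genotypes and the sort gates. The design summary of the series gives the female numbers the other way round (3 activated, 2 resting), and titles, genotypes and the paper's methods were followed. Of the entries in each table, 4 without a gene name, with 0.00353 to 0.00841% of the counts, were left out. Coordinates and exon lengths come from GENCODE M21, which matched 23651 of 24417 genes (96.9%).

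Counts were analyzed in R 4.3.3 with edgeR 4.0.16: filterByExpr on the groups, TMM and the quasi-likelihood F test, adjusted by Benjamini-Hochberg over every gene tested. A gene was called when its adjusted p was under 0.05. One fit held the 8 male libraries, one the 5 female libraries, and a fit of all 13 gave the difference of changes. The common biological coefficient of variation (male 0.51, female 0.171) came from these fits. Replicates had Pearson r of log2 CPM across genes of 0.933 to 0.948 (male) and 0.978 to 0.987 (female), and no 2 libraries were duplicates. Log ratios used log2 CPM with a prior count of 2, two-sided exact permutation tests and Benjamini-Hochberg adjustment over 24 tests. Bounds used a floor of 3 counts per library, and intervals are exact binomial (Clopper-Pearson) at 95%. Reads carry no molecular identifiers, so both cover counting error only. Python 3.11.15 with scipy 1.17.1 was used.

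The alternatives were DESeq2 1.42.0, edgeR with the size factors of DESeq2, no filter, a filter at a mean normalized count over 100, the replicate number as a block, only the 2 groups compared, a prior count of 0.5, and leaving out each library. The genes named are the 7 members, from each list and comparison the called genes with the largest absolute log2 fold change (up to 3 a direction), genes at or under 3 counts in every library, the 5 nearest profiles to *Il4*, *Gata3* and *Il1rl1*, and *Foxp3* and *Thy1*. Marker genes, *Ptpn6* and the genes called in the difference were named beside them. The members and lists were chosen with earlier results of these data known. Exons of *Stat6* share 40 bases with *Nab2* on the other strand and those of *Gata3* share 77 with *9230102O04Rik*, and antisense genes that are not in the tables overlap exons of *Il5*, *Gata3* and *Il4ra*.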

Additional observations from a re-analysis of the deposited data

Results flagged for a closer look

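The change from control to rescued Treg cells and the change from resting to activated wannabes differed for 2 of the 7 genes by a test of the difference itself, beside 1.53% of 15201 genes called (0.803% higher and 0.730% lower). For *Il4* the difference of the log2 changes was 5.12 (SE 0.834, edgeR adjusted p 0.0101), with changes of 6.50 in the male and 1.40 in the female experiment. For *Il1rl1* the difference was -3.03 (SE 0.612, edgeR adjusted p 0.0268), with changes of 1.24 and 4.29. In CPM, normalized separately in each experiment, mean *Il4* went from 0.138 to 12.9 and from 16.0 to 42.2, and mean *Il1rl1* from 76.9 to 181 and from 3.60 to 70.7, so the order of the changes is the opposite on that scale. Sex, age, allele, treatment and cell type (Treg cells in the male, wannabes in the female change) differ between the experiments and cannot be told apart. Leaving out either activated library ended both calls (edgeR adjusted p of 0.074 and 0.0677 for *Il4*, of 0.102 and 0.0952 for *Il1rl1*). Leaving out control replicate 1 or 3 or rescued replicate 2 or 3 ended that of *Il1rl1* (edgeR adjusted p of 0.0562, 0.059, 0.0581 and 0.0504).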

How the results depend on the processing

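The calls of *Il4*, *Gata3* and *Il1rl1* in rescued against control Treg cells, of *Il4*, *Il1rl1* and *Il4ra* in control Treg cells against male wannabes, of *Il4* and *Il4ra* in rescued Treg cells against male wannabes, and of *Gata3* and *Il1rl1* in activated against resting wannabes held in every fit that left out 1 library and in every other alternative. Of 176 fold changes of the 7 genes under the other alternatives, 173 kept direction and side of the threshold, and of 284 with a library left out, 261 did. With DESeq2, *Il4ra* was called in activated against resting wannabes (0.76, adjusted p 0.00612). With a replicate block it was too (1.01, edgeR adjusted p 0.00706; over the other alternatives 0.00612 to 0.0699), while *Il13* in rescued Treg cells against male wannabes was not called (-8.93, edgeR adjusted p 0.0669; over the other alternatives 0.000579 to 0.0669). The replicate numbers do not pair libraries: in 9 pairs of libraries with the same number, deviations from the group means correlated at -0.0292 to 0.0836.

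Genes called in rescued against control Treg cells were 343, but 1096 with DESeq2, 612 with no filter and 580 with only the 2 groups fitted. In the difference of changes they were 233, but 770 with DESeq2. With 1 library left out, the genes called ranged from 114 to 598 (rescued against control), 1549 to 2423 (control against male wannabe, 2416 with all), 751 to 3215 (activated against resting, 2958 with all) and 44 to 430 (difference, with 0 to 2 of the 7 genes). The lowest came without control replicate 1 (114), control replicate 2 (1549), activated replicate 1 (751) and activated replicate 2 (44). They moved by over 1.5 times without any of the 8 male libraries (rescued against control), any control library (control against male wannabe), either activated library (activated against resting), and either activated, either male wannabe or resting library 1 or 2 (difference). With 1 library left out, the log ratio of *Il5* to *Gata3* between rescued and control Treg cells ranged from -1.18 to 0.54 and to *Il1rl1* from -1.36 to 0.30, against -0.39 and -0.60 with all, and changed sign without control replicate 1 (0.11, to *Gata3*) or rescued replicate 3 (0.54 and 0.30). The fold change of *Il4ra* between these groups ranged from -0.034 (without rescued replicate 3) to 0.28 and that of *Il5* from -0.12 (without rescued replicate 1) to 2.73. None of these was called. The cause was not tested. All 24 log ratios kept their direction with a prior count of 0.5.

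A group left with 1 library was assumed to vary like the others. *Il5* and *Il13* gave no value under a mean normalized count over 100 in some fits, nor in the female table with the low-count filter. The sample number, 3 or 2 a group, limits the exact tests, and depth limits what can be said of *Il5* and *Il13* in groups with few counts.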
